A study of Mus musculus with 4 samples.

Results

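The 5 genes described here are Dlx1, Dlx2, Dlx5 and Dlx6, which encode homeodomain transcription factors, and Dlx6os1, a long noncoding RNA transcribed antisense to Dlx6. They were found by symbol among the 27998 genes counted, and all 5 were detected in all 4 libraries of the series. Parents heterozygous for Nestin-GFP and parents homozygous for DCX-mRFP were crossed, and embryos positive for both reporters gave cells of the cerebral cortex or of the ganglionic eminence (GE), the ventral forebrain region, at E15.5 or E18.5 (embryonic days). Green cells, labelled as neural progenitor cells, were sorted by flow cytometry and sequenced in droplets from the 3' end of transcripts. The 4 groups (E15.5 cortex, E18.5 cortex, E15.5 GE and E18.5 GE) shared both reporters and held 1 library each. No difference below therefore has a replicate check, none was tested, and cells were not counted as replicates. No source used here gives the number of embryos behind a library or the limit set on red fluorescence.

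The region labels go against region genes in all 4 libraries, and against the names of the deposited files. Emx1, a homeobox gene of the dorsal forebrain, stood at 1.29 and 1.21 unique molecular identifiers (UMIs) per 1000000, a unit called CPM below, in the libraries labelled E15.5 cortex and E18.5 cortex. In those labelled E15.5 GE and E18.5 GE it stood at 279 and 37.9 CPM. Nkx2-1, a homeobox gene of the medial eminence, stood at 269, 113, 0.994 and 1.84 CPM in the same order. Every direction between regions below is therefore one between libraries as labelled, and the labels are kept throughout. The libraries hold 1157, 3025, 870 and 1137 kept cells with a median of 16249, 8660, 23219 and 10085 UMIs per cell, in the order labelled E15.5 cortex, E18.5 cortex, E15.5 GE and E18.5 GE. Neuron genes were present beside progenitor genes in the sorted cells, with Dcx at 197 to 317 CPM and Nes at 78.3 to 166 CPM. Barcodes with UMIs of both Xist and a Y-linked gene made up 35.9%, 5.16%, 55.5% and 11.4% of the kept cells. Some results that rest on single cells are therefore also given without those barcodes. Results by number of neuron markers, splits of a cell group by 1 gene, values of glial cells and the nearest genes are not. Between 4 and 13 barcode sequences of a library also occurred in another library.

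Dlx genes are known as regulators of GABAergic fate in the ventral forebrain. Gsx2 acts before them in ventral progenitors, and the Dlx proteins in turn act on genes of GABA synthesis and of interneuron migration. Dlx1 and Dlx2 are described as the earlier pair and as activators of Dlx5 and Dlx6. Excitatory neurons of the cortex are not known for Dlx expression.

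The genes form 2 loci in the GENCODE M21 annotation of GRCm38. On chromosome 2, Dlx1 (ENSMUSG00000041911, 71528113 to 71533981, plus strand) and Dlx2 (ENSMUSG00000023391, 71543408 to 71546754, minus strand) face each other with 9426 bases between them. On chromosome 6, Dlx6 (ENSMUSG00000029754, 6863334 to 6868568, plus strand) and Dlx5 (ENSMUSG00000029755, 6877805 to 6882085, minus strand) face each other with 9236 bases between them. Dlx6os1 (ENSMUSG00000090063, 6820189 to 6871592, minus strand) spans all of Dlx6, and Dlx1as covers all of Dlx1 from the other strand. Whether counting used strand counts as not given in the sources used here, so reads of Dlx6 and Dlx6os1, and of Dlx1 and Dlx1as, may not be told apart, and values of Dlx6 are uncertain for that reason. The sums over the chromosome 6 locus used below do not depend on how counted reads were divided between Dlx6 and Dlx6os1.

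Windows from 250 bases before to 50 bases after the annotated starts are shown for Dlx1, Dlx2 and Dlx6os1, because the starts of the antisense RNA differ from those of Dlx1 and Dlx2 in base composition. Windows of Dlx5 and Dlx6 are not used here, so the chromosome 6 locus is shown by its noncoding RNA alone. They come from RefSeq on GRCm38.p6 and cover chr2:71529195-71529494 (plus strand) for Dlx1, chr2:71546705-71547004 (minus strand) for Dlx2 and chr6:6869484-6869783 (minus strand) for the upstream start of Dlx6os1. Capitals mark TAATTA, a core that homeodomain proteins bind, and CAGCTG, a core that many basic helix-loop-helix proteins bind. Each is its own reverse complement, so both strands were searched at once.
Dlx1: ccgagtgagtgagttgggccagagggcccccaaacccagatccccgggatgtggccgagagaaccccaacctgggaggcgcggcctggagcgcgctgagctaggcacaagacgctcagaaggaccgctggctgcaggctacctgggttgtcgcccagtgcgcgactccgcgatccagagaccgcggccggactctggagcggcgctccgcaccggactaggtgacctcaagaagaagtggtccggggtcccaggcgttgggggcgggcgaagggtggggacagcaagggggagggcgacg
Dlx2: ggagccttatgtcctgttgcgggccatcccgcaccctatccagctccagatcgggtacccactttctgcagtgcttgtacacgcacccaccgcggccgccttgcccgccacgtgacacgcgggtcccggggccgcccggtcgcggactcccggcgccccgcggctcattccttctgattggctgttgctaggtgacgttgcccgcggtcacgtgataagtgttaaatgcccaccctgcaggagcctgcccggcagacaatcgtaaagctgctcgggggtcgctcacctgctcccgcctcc
Dlx6os1: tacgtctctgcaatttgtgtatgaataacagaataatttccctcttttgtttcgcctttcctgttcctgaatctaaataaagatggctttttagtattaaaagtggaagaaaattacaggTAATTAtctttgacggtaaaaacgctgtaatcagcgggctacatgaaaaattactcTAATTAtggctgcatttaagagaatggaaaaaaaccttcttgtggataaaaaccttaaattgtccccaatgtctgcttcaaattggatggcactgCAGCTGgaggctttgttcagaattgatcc
The Dlx6os1 window holds 2 TAATTA and 1 CAGCTG, and the Dlx1 and Dlx2 windows hold 0 of either. TAATTA occurs in 5.29% and CAGCTG in 16.3% of the 32851 promoter windows of that length. GC content was 69.3% for Dlx1, 66.3% for Dlx2 and 35.7% for Dlx6os1. A second Dlx6os1 start, at chr6:6861634-6861933, holds 1 TAATTA and has 35.3% GC. A match describes the letters only.

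All 5 genes were most abundant in the library labelled E15.5 cortex, next in that labelled E18.5 cortex, then in that labelled E18.5 GE, and least in that labelled E15.5 GE. Dlx1 stood at 818, 629, 15.9 and 148 CPM in the libraries labelled E15.5 cortex, E18.5 cortex, E15.5 GE and E18.5 GE. Dlx2 stood at 998, 771, 23.9 and 186 CPM in the same order. Dlx5, which acts with Dlx6 in later differentiation, stood at 299, 168, 15.9 and 54.3 CPM. None of these 3 genes had overlapping counting intervals between any 2 libraries. For Dlx6 the values were 73.6, 53.5, 1.94 and 13.0 CPM. The antisense RNA Dlx6os1 stood at 399, 321, 11.02 and 69.1 CPM. Their counting intervals did not overlap between libraries either. The sum of the 5 genes was 2588, 1943, 68.6 and 470 CPM, from 58043, 43293, 1587 and 5381 UMIs. Of the rest of the family, Dlx3 had 0 UMIs in every library and Dlx4 had 2, both in the library labelled E18.5 GE, so the forebrain set was the one detected. Intervals here and below are exact 95% intervals that cover counting error only, not differences between embryos.

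**Figure D1:**
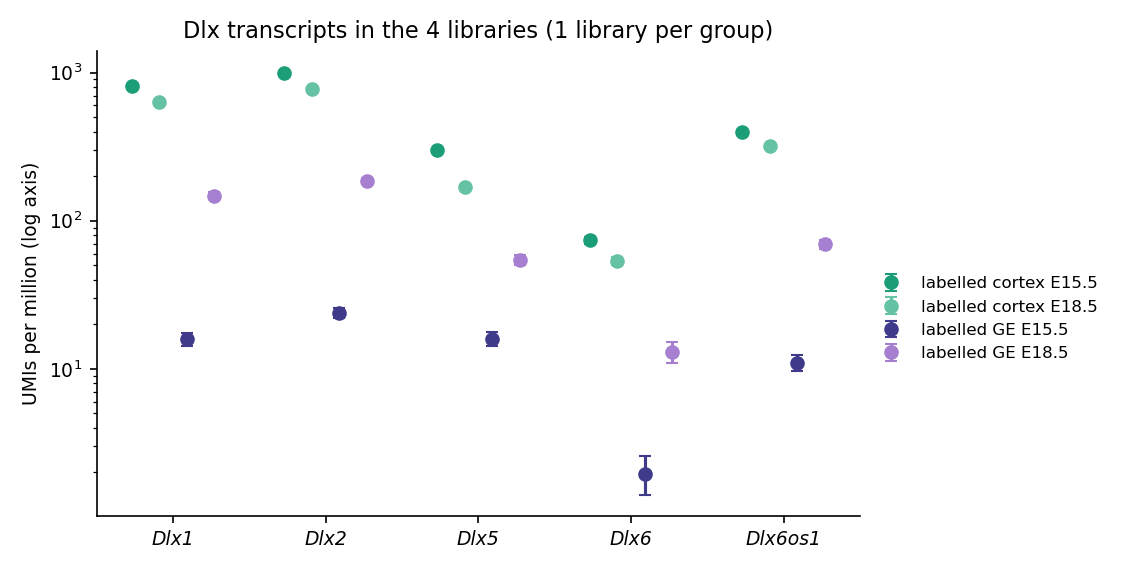
UMIs per 1000000 of each Dlx gene (log axis) in each of the 4 libraries, with exact 95% Poisson intervals. The libraries labelled cortex lie above those labelled GE for every gene, and the library labelled E15.5 GE is lowest, between 1.94 and 23.9 CPM.

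From E15.5 to E18.5 the 5 genes were lower in the library labelled cortex and higher in that labelled GE. A gene was called if it changed at least 2-fold with an interval that excludes 1, among genes with at least 20 CPM on either side. Of the 5 Dlx genes 0 were called in the labelled cortex, where 0.360% of 7232 measured genes were called lower and 4.30% higher. Dlx5 differed most, being 1.78-fold lower (1.71 to 1.85) at E18.5. Dlx1 was 1.301-fold lower (1.27 to 1.33), Dlx2 1.29-fold lower (1.27 to 1.32), Dlx6 1.38-fold lower (1.28 to 1.48) and Dlx6os1 1.24-fold lower (1.20 to 1.28). All of these are under the 2-fold limit. In the labelled GE all 4 of the Dlx genes that reached 20 CPM were called higher at E18.5, where 8.71% of 7810 measured genes were called higher and 2.69% lower. Dlx1 was 9.33-fold higher (8.33 to 10.48), Dlx2 7.80-fold higher (7.10 to 8.58), Dlx6os1 6.28-fold higher (5.44 to 7.26) and Dlx5 3.41-fold higher (2.996 to 3.89). Dlx6 stayed under 20 CPM, with a ratio of 6.70 (4.77 to 9.57). The library labelled GE changed in makeup over the same days. Its 9 dorsal markers went from 4140 to 1019 CPM in sum, its 9 excitatory neuron markers from 1712 to 236 CPM, its 13 astrocyte markers from 457 to 2468 CPM and its 11 oligodendrocyte lineage markers from 103 to 2004 CPM. The astrocyte sum of the labelled cortex went from 215 to 2579 CPM and its oligodendrocyte lineage sum from 150 to 764 CPM. The part of these shifts in the Dlx differences was not tested. Scaling by trimmed means moved the median log2 ratio of all measured genes from 0.07 to -0.13 in the labelled GE and from 0.04 to -0.11 in the labelled cortex. With it the share of calls that were higher in the labelled GE went from 76.4% to 60.7%, and the 5 Dlx genes kept their directions.

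Between regions as labelled, all 5 Dlx genes were called higher in the labelled cortex at both ages. The background at E15.5 was 5.23% of 7305 measured genes called higher and 6.16% lower. Dlx1 was 51.6-fold higher (46.5 to 57.4) in the labelled cortex, Dlx2 41.8-fold (38.5 to 45.6), Dlx6 37.9-fold (28.2 to 52.1), Dlx6os1 36.2-fold (32.0 to 41.2) and Dlx5 18.8-fold (16.9 to 20.96). The Dlx5 ratio was the smallest of the 5, and its interval did not overlap the others. At E18.5, where 1.44% of 7702 measured genes were called higher and 3.71% lower, the ratios were 4.25 for Dlx1, 4.15 for Dlx2, 3.10 for Dlx5, 4.11 for Dlx6 and 4.65 for Dlx6os1. Dorsal marker sums were 163 against 4140 CPM at E15.5 and 231 against 1019 CPM at E18.5, the lower value in the labelled cortex each time. Scaling by trimmed means moved the share of calls that were higher at E18.5 from 28.0% to 47.2% and left these directions as they were. The comparisons by age and by region share libraries and are not independent of each other.

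Genes placed around the Dlx genes in the pathway moved with them unevenly. The lists were chosen with earlier results of these data known, and are described by counts and medians only. From E15.5 to E18.5 in the labelled cortex, 0 of 11 measured upstream ventral factors were called higher, beside 4.30% of all measured genes, and 1 lower (Nkx2-1, log2 ratio -1.25), beside 0.360%, with a median of -0.39 beside 0.04 over all measured genes and -0.38 over the Dlx genes. Of 16 factors that act with or after Dlx, 2 were lower, the LIM-homeobox genes Lhx8 (-2.21) and Isl1 (-1.001). In the labelled GE over the same days, 5 of 7 upstream factors were higher and 1 lower, beside 8.71% and 2.69% of all measured genes, with a median of 1.75 beside 0.07 over all measured genes and 2.81 over the Dlx genes. They included Olig2 (5.29), which marks ventral progenitors and the oligodendrocyte lineage, and Gsx2 (3.83). All 5 measured genes of GABA synthesis and transport were higher there, among them Gad2 (2.00), a GABA-synthesising enzyme. Of 10 migration genes 3 were higher, led by the neuregulin receptor Erbb4 (2.70), and 4 were lower, led by the semaphorin co-receptor Nrp1 (-2.02). Between labelled regions at E18.5, where 1.44% of measured genes were called higher and 3.71% lower, Nkx2-1 (5.95) and Six3 (4.60) were higher in the labelled cortex, Olig2 was lower (-1.21), and 3 of 6 GABA genes were higher. Lhx6, a factor of medial eminence interneurons, was not called there, at 60.3 CPM in the labelled cortex and 52.4 CPM in the labelled GE, although the Dlx genes differed by 3.10-fold to 4.65-fold.

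Cells were thinned to 5000 UMIs each before detection was compared, which left out 567 cells labelled E18.5 cortex and 92 labelled E18.5 GE that were shallower. Dlx2 was detected in 91.0%, 69.2%, 6.67% and 25.6% of thinned cells in the libraries labelled E15.5 cortex, E18.5 cortex, E15.5 GE and E18.5 GE. Unthinned, the shares were 96.3%, 74.4%, 18.9% and 31.8%. Dlx5 was detected in 58.5%, 36.3%, 5.52% and 12.6% of thinned cells, against 79.8%, 46.5%, 18.51% and 18.4% unthinned. Free RNA and multiplets also give UMIs, and cells that should lack the genes give a level in which the 2 cannot be told apart. Cortical excitatory neuron-like cells of the library labelled E15.5 GE, with a median of 26858 UMIs, had Dlx2 in 3.94% of thinned and 15.4% of unthinned cells and Dlx5 in 2.63% and 15.8%. Those shares are read as background. Of these 533 cells, 60.2% carried UMIs of both Xist and a Y-linked gene. Their definition allows at most 1 GABAergic marker, and they are part of the library they are set beside. The 6.67% and 5.52% of that library as a whole, with a median of 23219 UMIs, lie above the thinned intervals of those cells (2.46 to 5.96 and 1.44 to 4.37). The 75 barcodes of that library that met no single definition of a cell group (below) had Dlx2 in 30.7% and Dlx5 in 25.3% of thinned cells.

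Most cells labelled E15.5 cortex carried several Dlx transcripts at once. At least 3 of the 5 genes were detected in 73.6% of thinned cells (851 of 1157) of the library labelled E15.5 cortex, in 47.3% (1163 of 2458) labelled E18.5 cortex, in 2.07% (18 of 870) labelled E15.5 GE and in 14.5% (151 of 1045) labelled E18.5 GE. Without the barcodes that carry both Xist and a Y-linked gene, the shares were 67.7%, 46.7%, 3.10% and 13.7%. Cells with 0 Dlx transcripts numbered 56, 589, 760 and 717. Detection was nested. Of cells with Dlx5, 96.8% (655 of 677) labelled E15.5 cortex and 94.5% (842 of 891) labelled E18.5 cortex also had Dlx2, while of cells with Dlx2 only 62.2% (655 of 1053) and 49.5% (842 of 1701) had Dlx5. Among cells labelled E18.5 GE the same shares were 86.4% (114 of 132) and 42.7% (114 of 267). In the library labelled E15.5 GE, Dlx2 was found in 164 and Dlx5 in 161 cells on all UMIs, so nesting is not stated there. The gene with the higher count is found more readily at 5000 UMIs, and the part of that in the nesting was not tested. In the labelled E18.5 cortex, Dlx2 was found in 54.8% of the cells without Dlx5. Among all thinned cells Dlx2 was found in 91.0% labelled E15.5 cortex, 69.2% labelled E18.5 cortex and 25.6% labelled E18.5 GE. The 96.8% of the labelled E15.5 cortex thus lies close to the share of all its cells, and shows little nesting by itself.

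**Figure D2:**
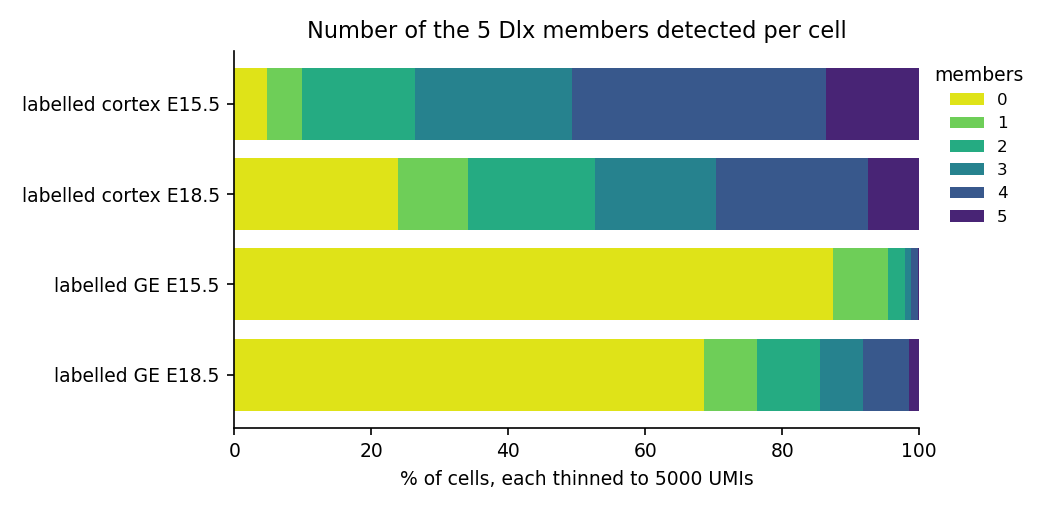
Percent of cells, each thinned to 5000 UMIs, with 0 to 5 of the Dlx genes detected, for each library. Cells with 3 or more make up 73.6% of the top bar (labelled E15.5 cortex) and 2.07% of the third bar (labelled E15.5 GE).

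Cells were next grouped by markers at the thinned depth, with no Dlx gene among the markers. Radial glia are the neural stem cells of the embryonic forebrain. Ventral radial glia-like cells had at least 6 of 13 radial glia markers and at least 1 of 9 ventral markers, with at most 3 of 9 neuron markers, at most 1 of 6 GABAergic markers and at most 1 of 9 dorsal markers. Markers of G2 and M phase were not limited in that group. Dividing ventral progenitor-like cells had fewer radial glia markers, at least 4 of 14 markers of G2 and M phase and at least 1 ventral marker. GABAergic neuron-like cells had at least 2 GABAergic and 4 neuron markers and at most 2 of G2 and M phase. The dorsal limit held for all 3 groups, and cells with several glial or vascular markers were left out of them. The 3 groups held 110, 575 and 101 cells labelled E15.5 cortex, 223, 636 and 435 labelled E18.5 cortex, and 86, 31 and 109 labelled E18.5 GE. The library labelled E15.5 GE held only 8, 4 and 3 such cells and gives no values by group. Barcodes that met no single definition, 339, 613 and 267 of the thinned cells of those 3 libraries, were left out of the groups.

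In ventral radial glia-like cells Dlx1 and Dlx2 were present and the chromosome 6 genes were low. Dlx1 stood at 341, 394 and 111 CPM there, in the libraries labelled E15.5 cortex, E18.5 cortex and E18.5 GE. Dlx2 stood at 572, 478 and 134 CPM. Dlx5 stood at 32.8, 31.0 and 3.14 CPM. Excitatory neuron-like cells of the library labelled E18.5 GE, which should lack the genes, had 48.7 (32.1 to 70.9) CPM of Dlx1, 34.3 (20.6 to 53.5) of Dlx2 and 1.80 (0.0457 to 10.05) of Dlx5. In that library Dlx1 and Dlx2 of ventral radial glia-like cells stood above that level and Dlx5 did not. The level rests on few cells, as its Dlx2 UMIs came from 3.28% of 61 unthinned excitatory neuron-like cells. That group is limited to at most 1 GABAergic marker. The libraries labelled cortex held too few such neurons for a level of their own, and the part of free RNA in their values was not tested. Dlx6 was at 8.56, 12.4 and 2.09 CPM. Dlx6os1 was at 40.7 and 27.4 CPM in the labelled cortex and had 0 UMIs in the 86 cells labelled E18.5 GE, which, at the floor of 3 counts, allows up to 3.49% of such cells to carry a UMI of it. In thinned cells Dlx2 was detected in 64.5%, 54.3% and 19.8% of ventral radial glia-like cells and Dlx5 in 7.27%, 8.07% and 1.16%. Unthinned, Dlx2 reached 80.0%, 67.3% and 23.3% at median depths of 13735, 10507 and 12998 UMIs.

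All 5 genes were higher in dividing ventral progenitor-like cells. Dlx1 stood at 964, 923 and 837 CPM there and Dlx2 at 1197, 1099 and 1086 CPM. Dlx5 stood at 349, 204 and 267 CPM, Dlx6 at 92.2, 76.5 and 68.8 CPM and Dlx6os1 at 444, 330 and 292 CPM. Every one of the 15 ratios to ventral radial glia-like cells was called higher, where 3.18%, 1.40% and 3.87% of measured genes were called higher. With these gates the size of the difference varied by locus. In the labelled E15.5 cortex it was 2.83-fold (2.58 to 3.11) for Dlx1 and 2.10-fold (1.95 to 2.25) for Dlx2, but 10.6-fold (7.96 to 14.6) for Dlx5, 10.8-fold (6.14 to 20.9) for Dlx6 and 10.9-fold (8.41 to 14.4) for Dlx6os1. In the labelled E18.5 cortex the ratios were 2.34 and 2.30 for Dlx1 and Dlx2, and 6.57, 6.16 and 12.04 for Dlx5, Dlx6 and Dlx6os1. For the labelled E18.5 GE they were 7.54 (6.02 to 9.51) and 8.11 (6.62 to 9.98) for Dlx1 and Dlx2, and 84.9 (28.2 to 419) for Dlx5 against 3 UMIs. Dlx6 was 32.9-fold higher (8.16 to 287) against 2 UMIs, and Dlx6os1 at least 93.1-fold higher, taking 3 UMIs as the floor over the group. These ratios depend on the limits set on neuron and GABAergic markers. Without those limits the sum of the 5 genes differed by a log2 ratio of 0.58 in the labelled E15.5 cortex and 0.69 in the labelled E18.5 cortex, in place of 1.62 and 1.48, and was not called, while in the labelled E18.5 GE it was called at 1.97. The locus difference went as well in the labelled E15.5 cortex, where the log2 ratios were then 0.50 for Dlx1, 0.67 for Dlx2, 0.60 for Dlx5, 0.75 for Dlx6 and 0.48 for Dlx6os1, with none called. The same values were 0.55, 0.62, 0.87, 1.15 and 1.25 in the labelled E18.5 cortex, with Dlx6 and Dlx6os1 called.

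**Figure D3:**
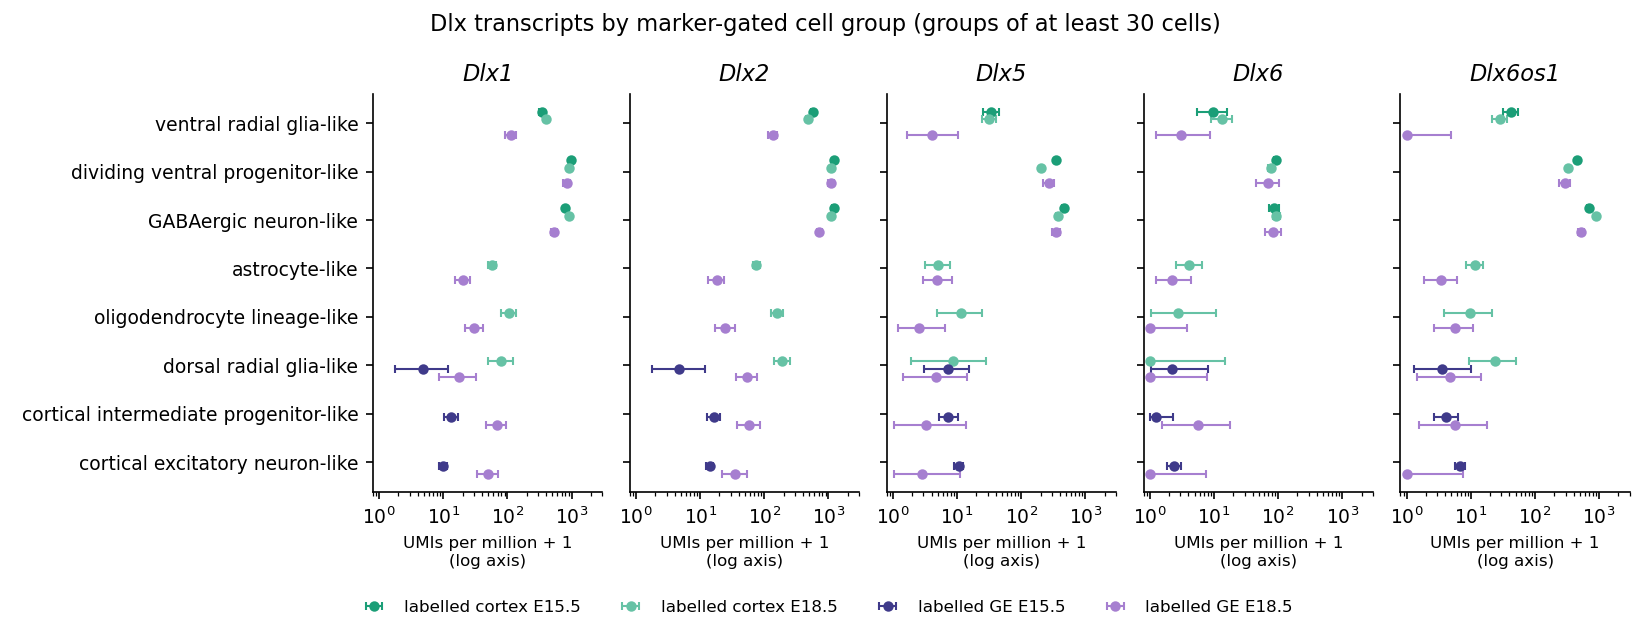
UMIs per 1000000 plus 1 (log axis) of each Dlx gene in each marker-defined cell group of at least 30 cells, by library, with exact 95% Poisson intervals. With these gates Dlx5, Dlx6 and Dlx6os1 differ more than Dlx1 and Dlx2 between ventral radial glia-like and dividing ventral progenitor-like cells. All 5 genes are lower in the other 5 groups than in dividing ventral progenitor-like cells. The highest value there is 188 CPM (140 to 248) of Dlx2, in 30 dorsal radial glia-like cells labelled E18.5 cortex.

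GABAergic neuron-like cells differed from dividing cells by under 2-fold in Dlx1 and Dlx2 and held more Dlx6os1. Dlx1 stood at 802, 908 and 526 CPM, Dlx2 at 1210, 1081 and 715 CPM and Dlx5 at 467, 368 and 346 CPM. Those values of Dlx5 were above the 349, 204 and 267 CPM of dividing cells, with counting intervals that overlapped only in the labelled E18.5 GE. Dlx6 stood at 86.4, 92.7 and 82.5 CPM and Dlx6os1 at 688, 888 and 524 CPM. Of the 15 ratios to dividing cells 1 was called higher, Dlx6os1 in the labelled E18.5 cortex at 2.69-fold (2.54 to 2.86), where 3.96%, 6.53% and 12.9% of measured genes were called higher in the 3 libraries. Dlx6os1 was 1.55-fold higher (1.44 to 1.66) in the labelled E15.5 cortex and 1.79-fold higher (1.43 to 2.26) in the labelled E18.5 GE. In the latter library Dlx1 was 1.59-fold lower (1.36 to 1.87) and Dlx2 1.52-fold lower (1.32 to 1.75) in neuron-like than in dividing cells.

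With the gates above, the Dlx genes differed by under 2-fold by age within the cell groups of the labelled cortex. None of the 14 measured ratios from E15.5 to E18.5 was called, in either direction, where 4.19% of genes were called in ventral radial glia-like, 1.85% in dividing and 2.37% in GABAergic neuron-like cells. With so small a share of all genes called, the lack of calls does not set the Dlx genes apart. In dividing cells Dlx5 was 1.71-fold lower (1.60 to 1.83) at E18.5, while Dlx1 was 1.05-fold lower (1.01 to 1.08) and Dlx2 1.09-fold lower (1.06 to 1.12). In ventral radial glia-like cells Dlx5 did not differ beyond counting error (1.06-fold lower, 0.705 to 1.58). That value depended on the gate. With 1 more marker asked, the log2 ratios of Dlx5 and Dlx6os1 in those cells were -1.52 and -2.73, and without the limits on neuron and GABAergic markers -1.05 and -1.20, all called lower at E18.5. Without barcodes that carry both Xist and a Y-linked gene they were 0.083 and 0.61. Dlx6os1 was 1.29-fold higher (1.20 to 1.39) at E18.5 in GABAergic neuron-like cells and 1.35-fold lower (1.28 to 1.42) in dividing cells. Barcodes with both Xist and a Y-linked gene moved with age too, and made up 31.8% of dividing cells labelled E15.5 cortex and 4.40% of those labelled E18.5 cortex.

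The labelled regions at E18.5 differed in ventral radial glia-like cells and less so in later cells. All 4 measured Dlx genes were called higher in ventral radial glia-like cells of the labelled cortex, where 2.48% of genes were. Dlx1 was 3.55-fold higher (2.89 to 4.39), Dlx2 3.57-fold higher (2.96 to 4.33), Dlx5 9.88-fold higher (3.22 to 49.2) and Dlx6os1 at least 8.73-fold higher. The last 2 rest on 3 and 0 UMIs in the labelled GE, and both lost the call when each gate asked for 1 more marker. In dividing cells 0 of 5 were called, where 1.47% of genes were, and Dlx2 was 1.01-fold higher (0.912 to 1.13). In GABAergic neuron-like cells 0 of 5 were called, where 5.58% were, with Dlx1 1.73-fold higher (1.54 to 1.95), Dlx2 1.51-fold (1.37 to 1.68), Dlx6os1 1.70-fold (1.51 to 1.91) and Dlx5 1.06-fold (0.918 to 1.24). The makeup of the ventral radial glia-like group differed as well. Olig2 was detected in 124 of 223 such cells labelled E18.5 cortex and in 69 of 86 labelled E18.5 GE, and its part in the difference was not tested.

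The share of Dlx UMIs that came from the chromosome 6 locus (Dlx5, Dlx6 and Dlx6os1) describes the locus difference without the total. It was 8.25% (6.86 to 9.82), 7.51% (6.34 to 8.82) and 2.09% (0.683 to 4.81) in ventral radial glia-like cells labelled E15.5 cortex, E18.5 cortex and E18.5 GE. In dividing ventral progenitor-like cells it was 29.1%, 23.2% and 24.6%. GABAergic neuron-like cells had 38.2%, 40.4% and 43.4%. With these gates the order of the 3 groups was the same in the 3 libraries, and no intervals overlapped within a library. Without the limits on neuron and GABAergic markers the share in ventral radial glia-like cells was 29.6%, 17.4% and 20.2%, so that in the labelled E15.5 cortex it was no longer below that of dividing cells.

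The limits on neuron and GABAergic markers were then crossed with the radial glia markers, a comparison chosen after the values above were seen. Cells within the limits had a low chromosome 6 share whether or not they had radial glia markers. With radial glia markers it was the 8.25%, 7.51% and 2.09% above (110, 224 and 87 cells). Of these cells 82, 135 and 44 were themselves dividing. In the labelled E18.5 cortex the share was 2.99% (1.64 to 4.96) in those not dividing and 9.08% (7.60 to 10.7) in those dividing. In the labelled E18.5 GE it was 3.03% (0.832 to 7.58) and 0.935% (0.0237 to 5.10). In dividing cells with fewer radial glia markers it was 10.8% (9.42 to 12.2, 59 cells) in the labelled E15.5 cortex and 7.04% (6.09 to 8.09, 146 cells) in the labelled E18.5 cortex. Cells beyond the limits had a high share in either case. With radial glia markers it was 31.8%, 24.0% and 27.1% (228, 196 and 38 cells), and in dividing cells with fewer radial glia markers 30.3% and 26.4% (516 and 490 cells). Dividing cells labelled E18.5 GE were under 30 in each class. Without barcodes that carry both Xist and a Y-linked gene, the shares within the limits were 4.73%, 6.28% and 2.18% with radial glia markers and 10.3% and 7.11% in dividing cells, and those beyond the limits were 26.3%, 22.9%, 22.9%, 27.7% and 26.2%. The GABAergic markers include Sp9 and Gad2, whose levels ran close to those of Dlx5 across groups (below), so the limits are not independent of the locus.

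Gene by gene, both sets of markers went with differences in Dlx levels. The first step went, within the limits, from radial glia marker cells, dividing or not, to dividing cells with fewer radial glia markers. In that step Dlx1 was 2.86-fold higher (2.55 to 3.22) and Dlx2 2.38-fold higher (2.16 to 2.61) in the labelled E15.5 cortex. They were 1.88-fold and 2.02-fold higher in the labelled E18.5 cortex. Dlx5 was 3.62-fold (2.51 to 5.28) and 1.92-fold (1.36 to 2.71) higher in the same step, and Dlx6 8.73-fold (4.63 to 17.9) and 2.76-fold (1.66 to 4.70). Dlx6os1 was 2.17-fold (1.496 to 3.14) and 1.301-fold (0.868 to 1.95) higher. From dividing cells within the limits to those beyond them, Dlx1 was at 0.986 times (0.915 to 1.06) and Dlx2 at 0.872 times (0.818 to 0.931) the level in the labelled E15.5 cortex, and 1.33-fold and 1.19-fold higher in the labelled E18.5 cortex. Dlx5 was 3.09-fold (2.503 to 3.86) and 4.22-fold (3.38 to 5.32) higher in that step, and Dlx6os1 5.35-fold (4.199 to 6.93) and 11.9-fold (9.02 to 16.1). Dlx6 was 1.25-fold (0.955 to 1.67) and 2.63-fold (1.95 to 3.62) higher. Among cells with radial glia markers, those beyond the limits had 2.20-fold and 2.40-fold more Dlx1 and 1.40-fold and 2.18-fold more Dlx2 in the libraries labelled E15.5 cortex and E18.5 cortex, so the chromosome 2 genes differed across the limits too. Dlx5 was 8.43-fold and 7.29-fold, Dlx6 7.63-fold and 5.43-fold and Dlx6os1 9.38-fold and 12.2-fold higher in that step. In radial glia marker cells of the labelled E18.5 GE, Dlx1 stood at 110 CPM within the limits and 512 CPM beyond them, Dlx2 at 133 and 622 CPM, and Dlx5 at 3.12 and 166 CPM. Without barcodes that carry both Xist and a Y-linked gene, some ratios moved in the labelled E15.5 cortex, where 95 of the 228 cells above remained. Dlx6os1 was then 5.70-fold (3.10 to 11.2) higher in the first step. Among radial glia marker cells it was 25.4-fold (14.96 to 46.75) higher beyond the limits. Dlx1 and Dlx2 of dividing cells beyond the limits stood at 1.10 times (1.01 to 1.19) and 1.06 times (0.991 to 1.14) the level within them.

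**Figure D4:**
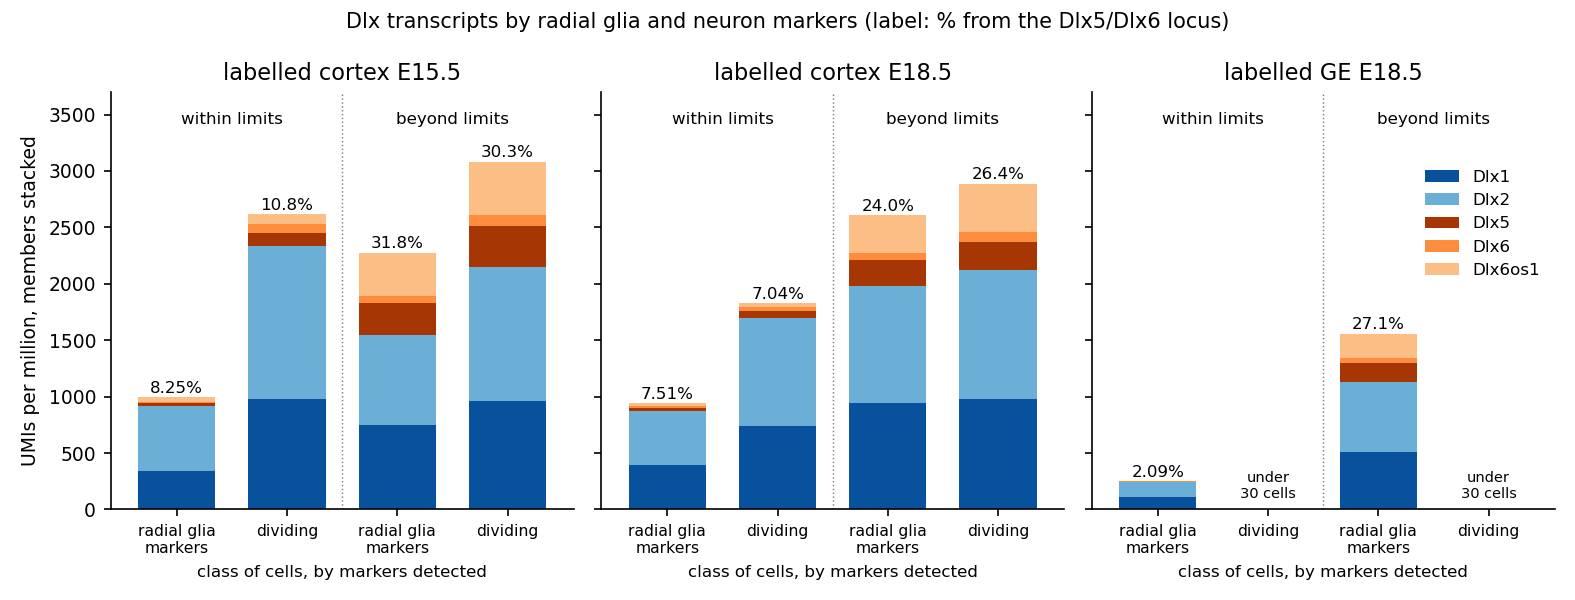
UMIs per 1000000 of the 5 Dlx genes, stacked, in cells with radial glia markers and in dividing cells with fewer of them, within and beyond the limits of at most 3 neuron and 1 GABAergic markers, in 3 libraries; the label on each bar is the percent of Dlx UMIs from the chromosome 6 locus. The orange parts are small within the limits (2.09% to 10.8%) and large beyond them (24.0% to 31.8%).

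The chromosome 6 share was also higher in cells with a larger number of neuron markers, out of 9, among ventral or GABAergic cells. These had at most 1 dorsal marker, under 4 astrocyte markers, and under 3 oligodendrocyte lineage and under 3 vascular or immune markers. In the labelled E15.5 cortex it was higher at every step, from 11.7% in cells with 1 neuron marker (55 cells) to 41.2% in cells with 8 (52 cells). In the labelled E18.5 cortex it was 12.7% at 0 markers (41 cells), 7.36% at 1, 43.9% at 8 and 40.8% (36.9 to 44.7) at 9 (37 cells). In the labelled E18.5 GE it went from 3.45% (0.420 to 11.9) at 1 to 46.0% at 9, with 24 to 52 cells a step and no value at 5 and 6 markers, where there were under 20 cells. In the labelled cortex the 2 loci were highest at different steps. Dlx1 and Dlx2 together were highest at 4 markers in the labelled E15.5 cortex (2026 CPM) and at 5 in the labelled E18.5 cortex (2187 CPM), and at 8 markers stood at 1629 and 1624 CPM. For the labelled E18.5 GE they stood at 1543 CPM at 4 markers (26 cells), 1018 at 8 and 1188 at 9, and the missing steps leave their highest step unplaced. The chromosome 6 genes together went from 196 CPM at 1 marker to 1143 CPM at 8 in the labelled E15.5 cortex, from 102 CPM at 1 to 1364 CPM at 7 in the labelled E18.5 cortex, and from 5.62 CPM at 1 to 1013 CPM at 9 in the labelled E18.5 GE.

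**Figure D5:**
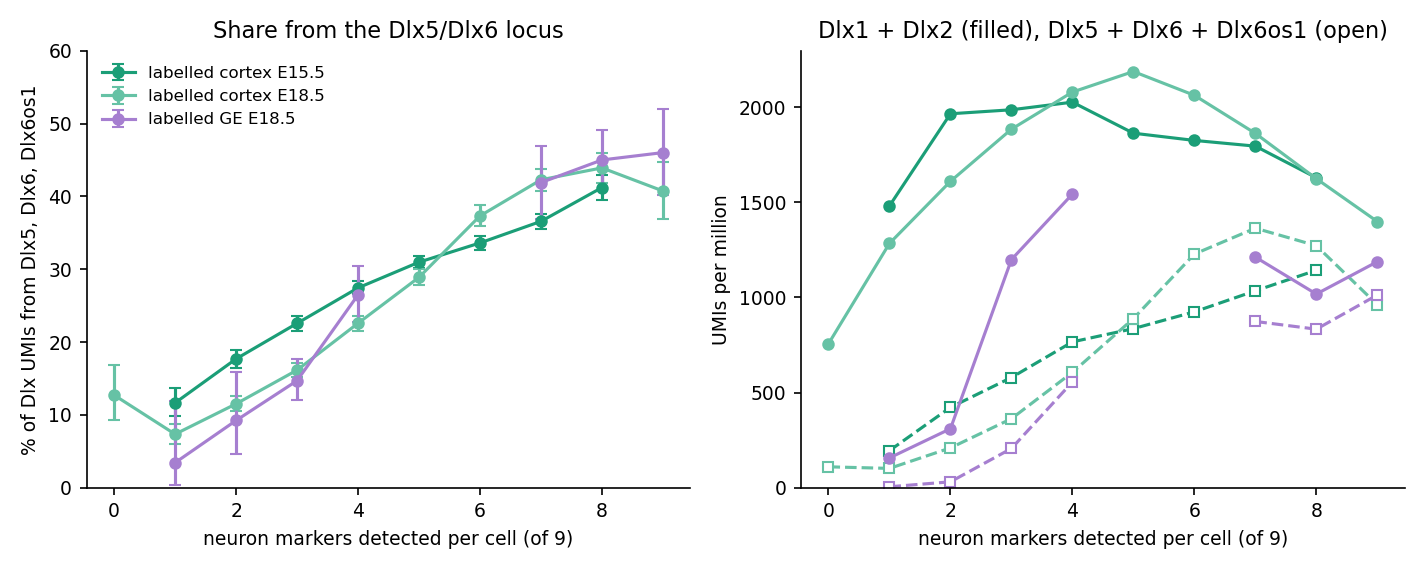
Left, percent of Dlx UMIs from the chromosome 6 locus, with exact 95% binomial intervals, against the number of neuron markers detected per cell; right, UMIs per 1000000 of Dlx1 with Dlx2 (filled circles) and of Dlx5, Dlx6 and Dlx6os1 (open squares). The share rises from 11.7%, 7.36% and 3.45% at 1 marker to between 41.2% and 45.0% at 8, while Dlx1 with Dlx2 is highest at 4 or 5 markers in the labelled cortex; steps 0, 5 and 6 have no value in the labelled E18.5 GE.

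Within ventral radial glia-like cells, Dlx2 was higher where Gsx2 was detected, and less so in the labelled cortex than in the labelled GE. Gsx2 belongs to the ventral markers that define the group, so a cell without it had to show another of that list. In the order labelled E15.5 cortex, E18.5 cortex and E18.5 GE, cells with Gsx2 had 1.57-fold (1.36 to 1.80), 1.47-fold (1.28 to 1.68) and 10.3-fold (6.78 to 16.1) more Dlx2. Dlx5 did not differ by Gsx2 beyond counting error in any of the 3 libraries. In the labelled E18.5 cortex, cells with Olig2 had less Dlx1 (275 against 531 CPM) and less Dlx5 (14.5 against 49.98 CPM) than cells without it, while in the labelled E15.5 cortex the sum was 1.02-fold higher (0.914 to 1.13) with Olig2.

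GABAergic neuron-like cells with Lhx6 had less Dlx1 than those without it. Dlx1 stood at 702 against 892 CPM in the labelled E15.5 cortex (45 and 56 cells), 721 against 1011 CPM in the labelled E18.5 cortex (162 and 273 cells) and 423 against 814 CPM in the labelled E18.5 GE (83 and 26 cells). The ratios were 1.27-fold (1.12 to 1.43), 1.40-fold (1.28 to 1.53) and 1.93-fold (1.53 to 2.42) lower with Lhx6. Dlx5 was 1.16-fold higher (1.02 to 1.32) with Lhx6 in the labelled E18.5 cortex and did not differ beyond counting error in the others. Dlx6os1 was 2.12-fold lower (1.69 to 2.65) with Lhx6 in the labelled E18.5 GE, at 405 against 857 CPM, and 1.03-fold lower (0.947 to 1.12) in the labelled E18.5 cortex.

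UMIs of Dlx1 and Dlx2 were also found in glial cells of the labelled E18.5 cortex. Astrocyte-like cells there (425 cells) had 56.2 CPM of Dlx1, 73.8 of Dlx2 and 3.97 of Dlx5. Oligodendrocyte lineage-like cells (77 cells) had 103 CPM of Dlx1, 156 of Dlx2 and 10.6 of Dlx5. In the labelled E18.5 GE the same groups (233 and 156 cells) had 19.0 and 29.1 CPM of Dlx1, and 17.0 and 23.7 of Dlx2. Excitatory neuron-like cells of that library (61 cells, median 8513 UMIs) had 48.7 CPM of Dlx1 and 34.3 of Dlx2. The glial values of the labelled GE do not stand above that level, which rests on few cells. Its 27 UMIs of Dlx1 came from 14.75% and its 19 UMIs of Dlx2 from 3.28% of the unthinned cells. Detection of Dlx2 in thinned cells was 15.53% in astrocyte-like and 18.2% in oligodendrocyte lineage-like cells labelled E18.5 cortex (27.1% and 29.9% unthinned). The labelled E18.5 cortex held too few excitatory neuron-like cells (11) to give its own level, and as a library it had 4.25-fold more Dlx1 than the labelled E18.5 GE, so the level of the latter does not give its background. The chromosome 6 share was 11.9% and 7.60% in astrocyte-like and oligodendrocyte lineage-like cells of the labelled E18.5 cortex, below the 27.9% of that library as a whole. In excitatory neuron-like cells labelled E15.5 GE the share was 43.3% (39.3 to 47.4), beside 42.1% in that library, and in those labelled E18.5 GE it was 2.13% (0.0539 to 11.3, 1 of 47 UMIs), beside 29.0%. The part of free RNA in the glial values was not tested.

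Cells with 3 or more Dlx genes in the libraries labelled GE carried genes of GABAergic neurons, and those labelled E15.5 GE also carried dorsal genes. In the library labelled E18.5 GE, 84 of the 151 such cells met the GABAergic neuron-like definition and 18 the dividing one. They had Lhx6 at 245 CPM against 3.76 CPM in cells with 0 Dlx genes, Gad2 at 320 against 9.39 CPM and the neuropeptide gene Npy at 168 against 9.52 CPM. Nkx2-1 stood at 3.19 CPM in them, against 177 CPM in cells with 3 or more Dlx genes labelled E18.5 cortex. The 18 cells of the library labelled E15.5 GE had the interneuron peptide Sst at 398 against 1.76 CPM, Sp9 at 268 against 7.85 CPM and 0 UMIs of Nkx2-1. Of these 18, 2 met the GABAergic neuron-like definition, 4 the dividing one and 3 the excitatory neuron-like one. In all, 12 of the 18 had at least 2 dorsal markers and 6 carried both Xist and a Y-linked gene. Emx1 stood at 192 CPM in the 18 cells against 283 CPM in cells with 0 Dlx genes, and Eomes at 384 against 610 CPM. Without cells that had 2 or more dorsal markers, 6 of 45 cells of that library had 3 or more Dlx genes, and 5 of 39 also without the barcodes with both Xist and a Y-linked gene.

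Across the 20 combinations of cell group and library with at least 30 cells, the 2 loci had different nearest genes. Likeness was Pearson's r of log2(CPM + 10) over these 20 profiles, among 9802 genes, and profiles of a library share its depth and its free RNA. Dlx1 and Dlx2 were most like each other (0.984). Besides each other, both were nearest to Carhsp1 (0.923 and 0.952) and Rffl (0.894 and 0.912). Dlx5, Dlx6 and Dlx6os1 were as close to each other (0.978 to 0.987), and less close to Dlx1 and Dlx2 (0.864 to 0.892). All 3 were nearest to the transcription factor gene Sp9 (0.988, 0.973 and 0.988) and next to Gad2 (0.968, 0.963 and 0.975). Sp9 was also among the 5 nearest genes of Dlx1 (0.889) and Dlx2 (0.880), with Pak3, a kinase gene (0.886 and 0.888). Slc32a1, the vesicular GABA transporter, stood at 0.941 with Dlx5 and 0.951 with Dlx6os1. Sp9, Gad2 and Slc32a1 are among the markers that define the groups, so their likeness is in part built in.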

How the data were processed

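The authors deposited whole-number counts of UMIs for every gene and barcode; their pipeline was Cell Ranger 1.3.1 with mm10, per the submitters' processing notes, which also name Seurat. Libraries used the 10x Chromium 3' chemistry, version 2, and about 10000 cells were loaded, as the labels' protocols state. The annotation release, the strand setting and the rule for calling cells count as not given in the sources used here.

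Barcodes with under 1000 genes or over 10% mitochondrial UMIs were left out (2, 35, 3 and 5 in the order labelled E15.5 cortex, E18.5 cortex, E15.5 GE, E18.5 GE). Doublet-like barcodes, scored against 2 simulated doublets per barcode, were left out up to 0.8% per 1000 barcodes (11, 79, 6 and 11). CPM are UMIs per 1000000 without 13 mitochondrial, 84 ribosomal protein and 10 haemoglobin genes. With 1 library per group no test was made. Intervals are exact at 95%: Poisson for CPM, conditional binomial for ratios, Clopper-Pearson for shares. PCR and droplet capture make UMIs not fully independent, so intervals cover counting error only. A gene was measured at 20 CPM or more on either side and called at 2-fold with an interval that excludes 1. Ratios against 0 UMIs took 3 UMIs as a floor. The ratio and call steps were tested on simulated data. For detection and gates, cells were thinned to 5000 UMIs. Gates need at least 30 cells.

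The 5 genes, 16 marker lists and pathway lists were chosen with earlier results of these data known, and the numbers of markers each gate needs were set after the files were seen. One listed marker of 164 is not used here. Named genes are the Dlx genes, up to 6 of each pathway list by size of ratio, the 5 nearest genes of each Dlx gene by likeness, and 16 genes of region, lineage and cycle. Dlx3, Dlx4, Dlx1as, Sst, Npy and Xist fall outside that rule and were named after their values were seen. Some genes the rule names are not reported here. Alternatives were trimmed-mean scaling (edgeR 4.0.16), a 5 CPM limit, doublet-like barcodes kept, 3000 UMIs or no thinning, all barcodes kept, all UMIs as scale, the mean of the cells' own CPM, gates asking 1 more marker, the deepest 10% of cells left out, and barcodes with both Xist and a Y-linked gene left out (4 Y-linked genes). The crossing of radial glia markers with the marker limits, gates without those limits, and the last alternative for shares and for cells with 3 or more Dlx genes were added after seeing the data. Scripts used Python 3.11.15, numpy 2.4.6, scipy 1.17.1, scikit-learn 1.9.0 and R 4.3.3.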

Additional observations from a re-analysis of the deposited data

Results flagged for a closer look

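From E15.5 to E18.5 each Dlx gene moved one way in the libraries labelled cortex and the opposite way in those labelled GE, with 1 library per group. The log2 ratio of Dlx1 was -0.38 in the labelled cortex and 3.22 in the labelled GE. For Dlx2 it was -0.37 and 2.96, for Dlx5 -0.83 and 1.77, for Dlx6 -0.46 and 2.74, and for Dlx6os1 -0.31 and 2.65. The sum of the 5 genes gave -0.41 and 2.78. The difference between the regions was not tested, since no group has a second library, and the region labels go against Emx1 and Nkx2-1 in all 4 libraries.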

How the results depend on the processing

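No paired analysis was possible because each group holds 1 library. The directions of the library comparisons of all 5 Dlx genes and of their sum held under every alternative run. Over the Dlx genes, in libraries and gates, 263 ratios kept direction and side of the 2-fold rule, 11 lost the call, 7 gained it and 9 changed sign. For their sum the numbers were 53, 2, 0 and 3. With at least 5 CPM, genes called numbered 826 higher and 54 lower by age in the labelled cortex, 1336 higher and 361 lower by age in the labelled GE, 882 lower between regions at E15.5, and 205 higher and 620 lower at E18.5, since more genes were measured. Trimmed-mean scaling gave 49 lower by age in the labelled cortex and 171 higher between regions at E18.5.

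Of cells with Dlx2, the share with Dlx5 was 82.3%, 59.7%, 63.4% and 53.9% on all UMIs, in the order labelled E15.5 cortex, E18.5 cortex, E15.5 GE and E18.5 GE. At 3000 UMIs it was 49.0% and 40.3% in the labelled cortex. In the labelled E15.5 cortex it was 59.0% without barcodes with both Xist and a Y-linked gene and 58.9% with doublet-like barcodes kept.

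The chromosome 6 share depended on the gates. Without the marker limits it was 29.6%, 17.4% and 20.2% in ventral radial glia-like cells labelled E15.5 cortex, E18.5 cortex and E18.5 GE (320, 388 and 119 cells). Dividing cells had 29.1%, 23.2% and 24.6%, so the share stayed below theirs in the libraries labelled E18.5. Without barcodes with both Xist and a Y-linked gene it was 4.73% and 6.28% in ventral radial glia-like cells of the labelled cortex, and 25.8% in dividing cells labelled E15.5 cortex. With 1 more marker asked, it was 4.55% in ventral radial glia-like and 21.3% in dividing cells labelled E18.5 cortex, and 41.7% and 44.3% in GABAergic neuron-like cells labelled E15.5 cortex and E18.5.

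Log2 ratios of dividing over ventral radial glia-like cells, without the limits, were 0.58 and 0.69 for the sum in the labelled cortex and lost the call. Ratios near 0 changed sign. For neuron-like over dividing cells without the barcodes of Xist and a Y-linked gene, the sum was -0.031 and Dlx2 -0.22 in the labelled E15.5 cortex, and Dlx1 0.036 and Dlx2 0.001 in the labelled E18.5 cortex. With 1 more marker asked, Dlx6 was 0.082 in the labelled E15.5 cortex and the sum 0.022 in the labelled E18.5 GE. By age in the labelled cortex, with 1 more marker, the sum in neuron-like cells was -0.008 and Dlx1 in ventral radial glia-like cells -0.41. In those cells Dlx1 was -0.11 and Dlx6 -0.67 without the limits, and Dlx5 was 0.083 and Dlx6os1 0.61 without the barcodes of Xist and a Y-linked gene. The cause of these changes was not tested. Dlx6 had the fewest UMIs of the 5 Dlx genes in every library. In ventral radial glia-like cells labelled E18.5 GE, with a median of 12998 UMIs, Dlx5, Dlx6 and Dlx6os1 rest on 3, 2 and 0 UMIs. The part of depth in these low counts was not tested.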

Other observations

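In the labelled E18.5 cortex, dividing cells with Egfr, the epidermal growth factor receptor, had less Dlx6os1 and Dlx5 than those without it. Dividing ventral progenitor-like cells with Egfr (79 cells labelled E18.5 cortex) had Dlx6os1 at 126 CPM, against 360 CPM in the 557 cells without it, which is 2.86-fold lower (2.33 to 3.54). Dlx5 stood at 118 against 217 CPM, 1.83-fold lower (1.48 to 2.29). Dlx1 was 1.15-fold lower (1.05 to 1.25) and Dlx2 1.19-fold lower (1.11 to 1.29) in the same cells. In the labelled E15.5 cortex only 21 dividing cells had Egfr, with Dlx6os1 1.33-fold lower (1.14 to 1.57). The split was chosen after seeing the data and was not tested. Its relation to the limits on neuron and GABAergic markers was not tested either.

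Dlx1as, the antisense transcript over Dlx1, went the other way from Dlx1 by age in the labelled cortex. It stood at 13.3 CPM at E15.5 and 27.9 CPM at E18.5, 2.10-fold higher (1.82 to 2.42), where Dlx1 was 1.301-fold lower. In the labelled GE it stood at 0.907 and 12.7 CPM. Without strand information its reads may include reads of Dlx1, and the part of such reads was not tested.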
